A study of Mus musculus with 20 samples.

Results

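Zfp352, Ubtfl1, Sp110, Arg2, Tmem92, Tcstv1, Tcstv3, Gm20767 and Gm6763 were followed from the egg to the 2-cell embryo as genes counted among the transient transcripts of the mouse 2-cell stage. They were taken by symbol from the authors' 5 deposited comparison tables, which held all 9 of them among 24411 gene symbols. The samples were batches of 10 to 15 eggs or embryos of 2 backgrounds, C57BL/6J and the hybrid B6CASTF1, untreated apart from the culture below. The authors' comparison names call the C57BL/6J samples WT (wild type) and give no genotype for B6CASTF1. Poly(A) RNA was copied from an oligo-dT primer by Smart-seq2. For C57BL/6J there were 3 samples each of MII eggs (mature, unfertilized), G1 zygotes (1-cell embryos before DNA replication), G2 zygotes (after replication) and 2-cell embryos in G2. For B6CASTF1 there were 3 samples of G1 zygotes, 3 of G2 zygotes and 2 of 2-cell embryos in G2. All eggs had been held with dbcAMP and then matured for 12 h in M16 medium. Embryos came from eggs fertilized in vitro and were kept in KSOM under 5% O2. Which of the parents of the hybrid was the mother is not stated in the labels, and B6CASTF1 eggs were not analysed here.

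In the mouse, the 2-cell stage is the main wave of embryonic genome activation, when the embryo's own transcription takes over from RNA stored in the egg. Many transcripts of that wave are linked to the endogenous retrovirus MERVL, whose long terminal repeats act as promoters in 2-cell embryos and in rare 2-cell-like cells of embryonic stem cell cultures. Transcripts of this class are called transient because they decline again after the 2-cell stage. No stage after the 2-cell embryo was analysed here, so a decline could not be looked for.

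The authors' tables hold a mean normalized count per gene and strain, and for each step a log2 fold change with its standard error (SE) and an adjusted p-value from DESeq2, but no value per sample. A gene was counted as changed where the authors' adjusted p was under 0.05. Stage levels below are approximate mean normalized counts, computed from the deposited mean and fold changes, and so carry no error of their own. The 2 strains were normalized separately, so levels are compared within a strain and fold changes between strains. Nothing in the labels says that the samples came from separate females or days, so p-values measure the spread between these samples, which may be technical. In bulk samples of whole embryos, fewer cells expressing a gene and less RNA per cell cannot be told apart. Because the RNA was copied from an oligo-dT primer, a change in RNA amount and a change in its poly(A) tail cannot be told apart either. All 9 genes entered the test in all 5 comparisons.

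At the 2-cell step most of the 9 genes rose, but Arg2 and Tcstv1 did not. In C57BL/6J, 5 of the 9 genes were higher in 2-cell embryos than in G2 zygotes (Zfp352, Ubtfl1, Sp110, Gm20767 and Gm6763) and 0 were lower, against 25.0% higher and 25.3% lower among all 12839 genes tested. In B6CASTF1, 7 were higher (the same 5 with Tmem92 and Tcstv3) and 1, Tcstv1, was lower, against 33.1% and 26.8% of 16128 genes. The median log2 fold change of the 9 genes at this step was 2.09 in C57BL/6J, where that of all genes tested was 0.17, and 4.54 in B6CASTF1, where it was 0.55. Between G1 and G2 zygotes fewer of them were called than at the 2-cell step. In C57BL/6J 1 was higher and 0 lower (Gm6763, against 5.01% and 2.87% of 13264 genes). In B6CASTF1 3 were higher and 0 lower (Arg2, Gm6763 and Sp110, against 9.63% and 9.63% of 14668 genes). From the MII egg to the G1 zygote, compared here in C57BL/6J only, 1 was higher (Arg2) and 0 lower, against 1.62% and 1.12% of 13551 genes.

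**Figure D1:**
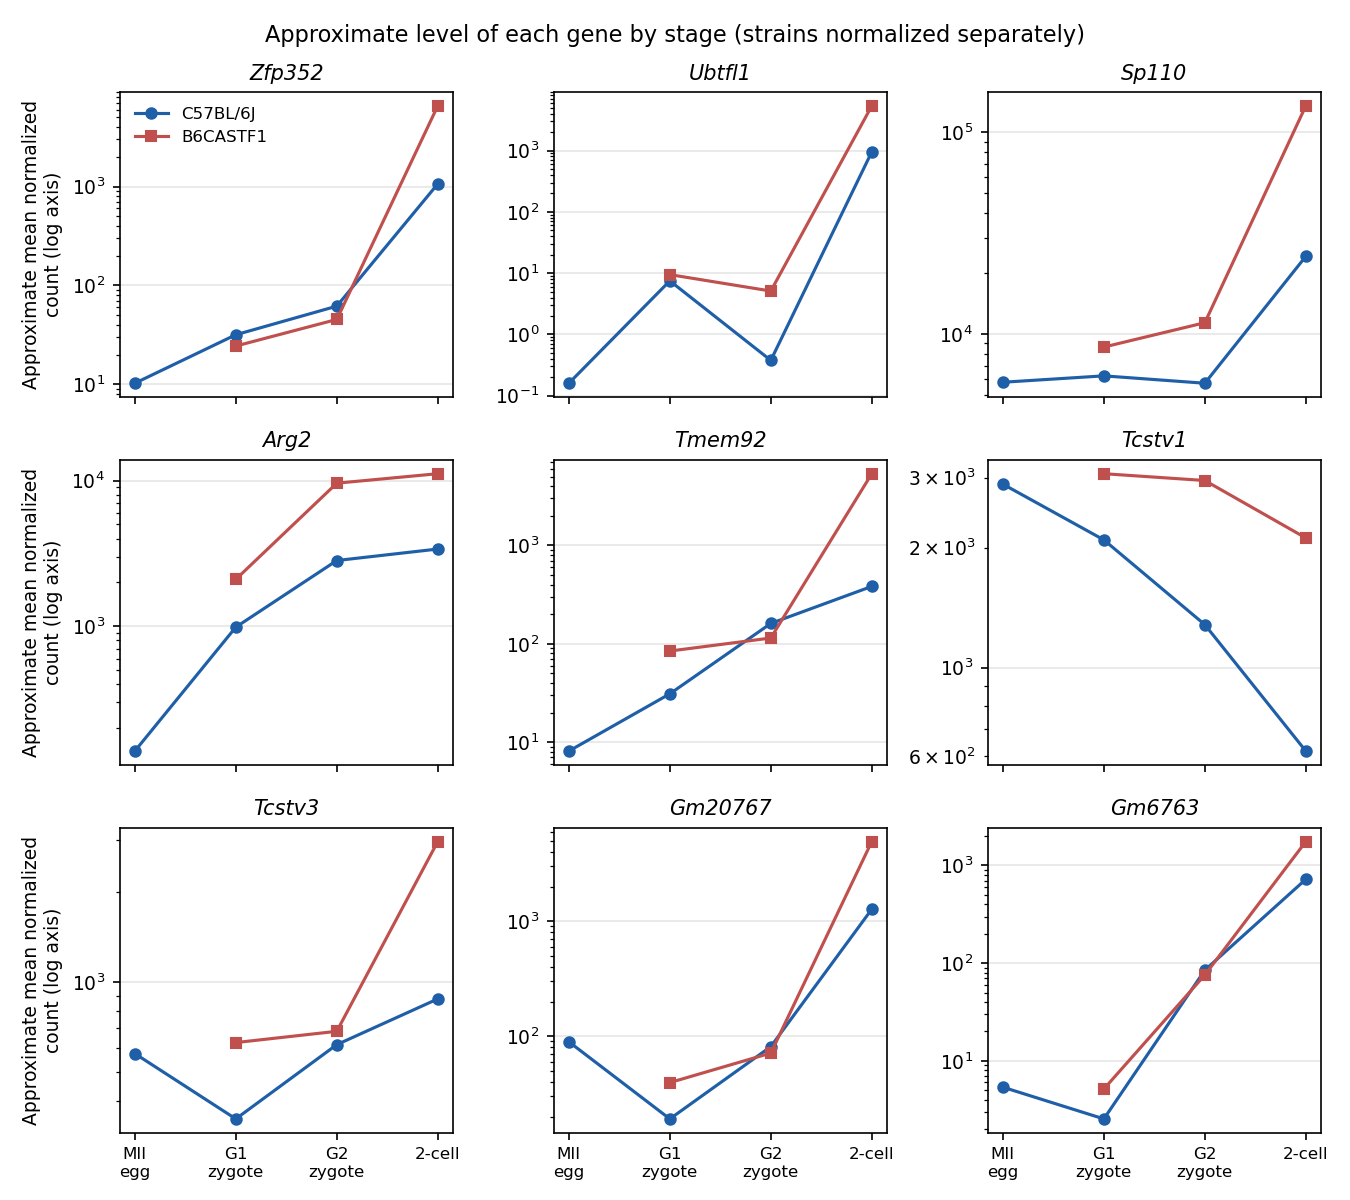
Approximate mean normalized count (log axis) of each gene at each stage, for C57BL/6J (blue circles) and B6CASTF1 (red squares); points are computed from the deposited means and fold changes and have no error bar. Most genes climb steeply into the 2-cell stage, Arg2 is already near its 2-cell level in G2 zygotes, and Tcstv1 is highest before it.

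Zfp352 encodes a C2H2 zinc finger protein and is a common marker of the 2-cell state. It lies at chr4:90218820-90225702 on the plus strand (GRCm38, GENCODE M21). Its approximate level in C57BL/6J was 10.3 in eggs, 31.7 in G1 zygotes and 61.7 in G2 zygotes, and 1062 in 2-cell embryos. In B6CASTF1 it was 24.4 in G1 zygotes, 45.3 in G2 zygotes and 6537 in 2-cell embryos. The highest level before the 2-cell stage was 5.81% of the 2-cell level in C57BL/6J and 0.693% in B6CASTF1, both in G2 zygotes. In the authors' deposited tables Zfp352 rose at the 2-cell step 17.2-fold in C57BL/6J, a log2 change of 4.11 with an SE of 0.62 (adjusted p = 4.5e-10), and by 7.17 (95% interval from 4.86 upward, adjusted p = 4.9e-09), or 144-fold, in B6CASTF1. None of the earlier steps was called for Zfp352 in the authors' deposited tables, with log2 fold changes of 1.63 from egg to G1 zygote (adjusted p = 0.27) and, from G1 to G2, of 0.96 in C57BL/6J (adjusted p = 0.45) and 0.89 in B6CASTF1 (adjusted p = 0.67).

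The promoter of Zfp352 is printed because of a repeat in it. Of the 9 genes, 3 have an entry in the RefSeq promoter table used here (build GRCm38.p6, 250 bases before to 50 after each annotated start, 32851 promoters): Zfp352 and Ubtfl1 with 1 start each and Sp110 with 2. The letters GGATTA, the core bound by homeodomain proteins of the Obox type, were searched on both strands, where the reverse complement reads TAATCC. In the Zfp352 promoter, chr4:90218570-90218869 on the plus strand, they are in capitals.
Zfp352: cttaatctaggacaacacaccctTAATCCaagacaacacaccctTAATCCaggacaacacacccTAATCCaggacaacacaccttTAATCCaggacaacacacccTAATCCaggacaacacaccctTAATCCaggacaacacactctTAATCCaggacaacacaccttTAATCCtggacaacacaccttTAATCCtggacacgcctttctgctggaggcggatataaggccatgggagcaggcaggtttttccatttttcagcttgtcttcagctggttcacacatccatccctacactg
They occur 9 times, all as TAATCC, from position -227 to position -61 relative to the start, at a spacing of 20 to 21 bases. No other of the 32851 promoters has as many: the next has 4. One match or more is held by 7.06% of all promoters and 2 or more by 0.359%. The second set of letters shown is the promoter at the upstream of the 2 annotated starts of Sp110, chr1:85603842-85604141 on the minus strand, with GGATTA in capitals. It lies outside the Sp110 span of GENCODE M21 given below and inside that of Sp140 on the opposite strand (chr1:85600378-85645037), and the tables do not say which start was used.
Sp110: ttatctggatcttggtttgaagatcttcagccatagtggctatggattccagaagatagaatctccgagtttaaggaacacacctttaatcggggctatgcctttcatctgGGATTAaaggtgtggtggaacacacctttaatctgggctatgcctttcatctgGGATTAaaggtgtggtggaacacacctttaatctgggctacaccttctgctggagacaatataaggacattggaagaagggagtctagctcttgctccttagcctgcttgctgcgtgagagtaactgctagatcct
It holds GGATTA 2 times, at -139 and -86. The other Sp110 start, chr1:85598761-85599060 on the minus strand, has 1 match, and the Ubtfl1 promoter, chr9:18404168-18404467 on the plus strand, has 0. None of these 4 promoters holds TCAAGGTCA or its inner AAGGTCA (written for Nr5a2, in 0.423% and 4.72% of all promoters), GATTNAATC (written for Dux, 0.268%) or TATAAA (13.6%), each searched on both strands. A match is a run of letters and not evidence of binding.

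Across all genes, promoters with more Obox cores are few, and the share of 2-cell rises among them was as follows. With 0, 1 and 2 or more cores, 24.5% of 9032, 27.3% of 693 and 46.7% of 30 genes were higher at the C57BL/6J 2-cell step. The same shares in B6CASTF1 were 33.1% of 11247, 35.6% of 849 and 37.5% of 48. The class with 2 or more cores holds 14 higher genes in C57BL/6J and 18 in B6CASTF1, Zfp352 and Sp110 among them, and the shares are given as a description.

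The promoters of Zfp352 and of the upstream start of Sp110 also share letters with each other and with a small set of further promoters. This set was found after the values were seen, so it is described and not tested. The longest run common to both is 15 bases long and was found, on the strand of the gene, in 21 promoters (0.0639%) of 20 genes. The 85 bases from the last copy of that run toward the start are printed for both genes and for 3 others of the set, with the run in capitals and, further on, the letters TATAAGG in capitals.
Zfp352: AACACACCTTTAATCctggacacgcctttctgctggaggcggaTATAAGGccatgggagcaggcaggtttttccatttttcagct
Sp110: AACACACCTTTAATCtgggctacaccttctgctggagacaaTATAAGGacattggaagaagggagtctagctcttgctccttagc
Gm21293: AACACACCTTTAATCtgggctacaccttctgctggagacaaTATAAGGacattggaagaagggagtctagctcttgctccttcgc
Pemt: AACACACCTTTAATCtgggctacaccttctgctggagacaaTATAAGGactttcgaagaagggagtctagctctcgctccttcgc
D17Ertd648e: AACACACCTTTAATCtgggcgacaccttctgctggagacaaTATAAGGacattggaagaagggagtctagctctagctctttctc
The windows lie at chr4:90218749-90218833 (plus), chr1:85603875-85603959 (minus), chr10:104142916-104143000 (plus), chr11:60040178-60040262 (minus) and chr17:11883193-11883277 (minus), all GRCm38.p6. Compared base by base without gaps with the Sp110 window, the window of Gm21293 is equal at 84 of 85 positions, that of Pemt at 81 and that of D17Ertd648e at 80. Zfp352 is equal at 34 positions. TATAAGG begins at -27 relative to the annotated start in Sp110, at -28 in Zfp352, at -30 in Gm21293, at -33 in Pemt and at -47 in D17Ertd648e. All 21 promoters of the set hold TATAAGG, against 2.17% of all promoters on either strand. All 21 also hold an Obox core, which in Zfp352 overlaps the shared run. Most of their windows are near copies of the Sp110 window, and Gm33248 is counted at separate starts with the same window. The 21 are therefore not independent, and choosing them by the run largely fixes that they hold the other letters.

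**Figure D2:**
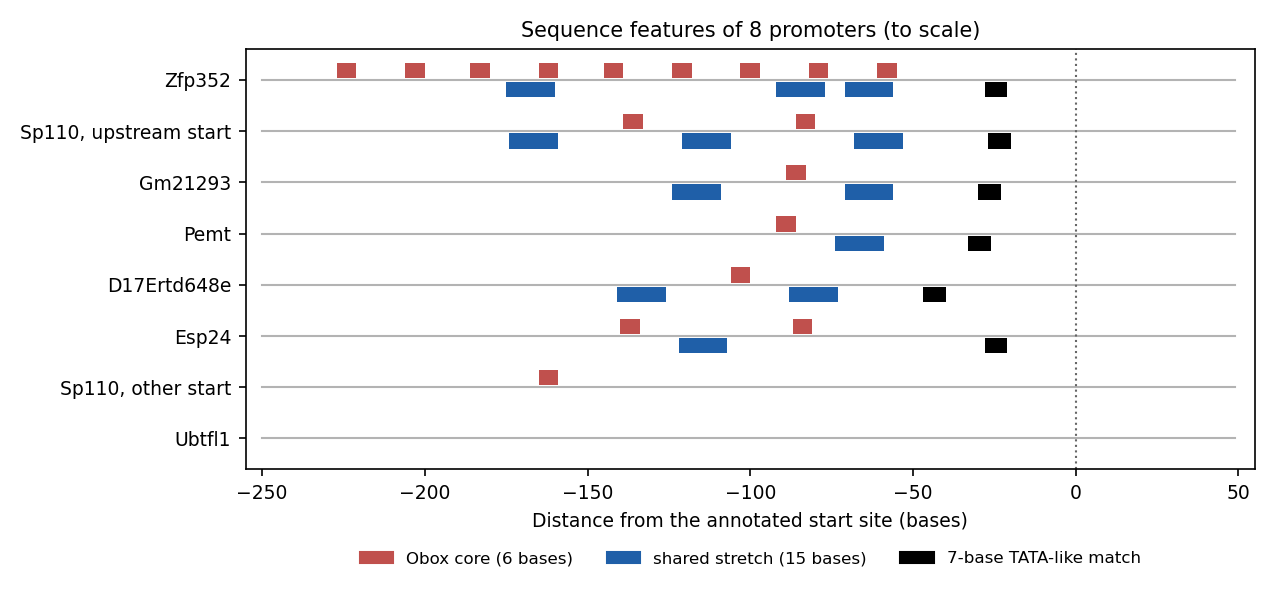
Position, in bases from the annotated start (dotted line), of Obox cores (red), of the 15-base run shared by Zfp352 and Sp110 (blue) and of the 7-base TATA-like match (black) in 8 promoters of 300 bases. Zfp352 has 9 cores in a row, 6 of the promoters hold the shared run and the 7-base match in the same order, and Ubtfl1 has none of the features.

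Of the 20 genes with the shared run, 11 are in the authors' tables. At the 2-cell step 8 of the 8 tested in C57BL/6J and 10 of the 10 tested in B6CASTF1 were higher, with medians of 3.60 and 5.96 on the log2 scale. Of all genes tested 25.0% and 33.1% were higher, with medians of 0.17 and 0.55. These genes are not independent of each other or of the genes described here. Zfp352 and Sp110 are 2 of them, and Gm21293, Gm21304 and Gm8764 carry the same deposited values as Gm6763. Gm21312 and Gm20765, tested in B6CASTF1 only, share values with each other. The remaining 3 are Pemt (an enzyme of phosphatidylcholine synthesis), D17Ertd648e and Esp24 (of the exocrine gland-secreted peptides). In the authors' deposited tables, Pemt rose by 4.81 (SE 0.61, adjusted p = 6.9e-14) in C57BL/6J and by 5.74 (SE 0.25, adjusted p = 3.3e-114) in B6CASTF1. D17Ertd648e rose in the authors' deposited tables by 5.70 and 6.18 and Esp24 by 10.38 and 12.33 (C57BL/6J and B6CASTF1, log2).

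Sp110 encodes a nuclear body protein of the Sp100 family and lies at chr1:85576899-85598817 on the minus strand in GENCODE M21. It was abundant before the 2-cell stage. In C57BL/6J its approximate level was 5785 in eggs, 6222 in G1 zygotes and 5720 in G2 zygotes, and 24327 in 2-cell embryos. The hybrid B6CASTF1 had 8643, 11408 and 135341 in G1 zygotes, G2 zygotes and 2-cell embryos. Eggs of C57BL/6J already held 23.8% of the 2-cell level, where for Zfp352 they held 0.965%. In the authors' deposited tables the 2-cell step was 2.09 (log2, SE 0.23, adjusted p = 9.5e-19), or 4.25-fold, in C57BL/6J and 3.57 (SE 0.17, adjusted p = 4.7e-95), or 11.9-fold, in B6CASTF1. From G1 to G2 the authors' deposited table gave a small rise in B6CASTF1, of 0.40 (SE 0.15, adjusted p = 0.047), and -0.12 (adjusted p = 0.89) in C57BL/6J. The B6CASTF1 call was lost with an adjusted p under 0.01, a Bonferroni threshold, a log2 fold change of at least 1 or SEs raised 1.5 times. Of the 31-base words of its longest coding transcript, 58.0% also occur in other genes (33.9% in Gm15753 and 29.8% in Gm16026), so its count may include reads of copies. Its neighbour Sp140, of the same family, also rose at the 2-cell step in the authors' deposited tables, by 3.58 (SE 0.36, adjusted p = 9.9e-22) in C57BL/6J and by 3.97 (SE 0.24, adjusted p = 8.8e-61) in B6CASTF1. The next gene, Sp100, was not called, at -2.59 (adjusted p = 0.14) and -1.10 (adjusted p = 0.37) in the authors' deposited tables.

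Ubtfl1 encodes an HMG-box relative of Ubtf, the factor that opens ribosomal DNA to RNA polymerase I. The gene lies at chr9:18404418-18413177 on the plus strand. It showed the steepest 2-cell step of the 9 genes in both strains. Its approximate level in C57BL/6J was 0.16 in eggs, 7.48 in G1 zygotes and 0.377 in G2 zygotes, and 952 in 2-cell embryos. In B6CASTF1 it was 9.46 in G1 zygotes, 5.11 in G2 zygotes and 5359 in 2-cell embryos. Before the 2-cell stage its level thus stayed under 10 in both strains. The authors' deposited log2 fold change at the 2-cell step was 11.30 (SE 2.30, adjusted p = 5.2e-06) in C57BL/6J and 10.04 (SE 0.47, adjusted p = 1e-99) in B6CASTF1. Fold values are not given for C57BL/6J because the zygote level is under 1 count, and the authors' deposited shrunken log2 fold change there was 9.32. The earlier steps, 5.55 (SE 2.32, adjusted p = 0.28) and -4.31 (SE 2.32, adjusted p = 0.3) in the authors' deposited tables of C57BL/6J, were not called.

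Arg2, the mitochondrial arginase, which splits arginine into ornithine and urea, followed another course. It lies at chr12:79130777-79156301 on the plus strand, and none of its 31-base words occur in another gene. The approximate level in C57BL/6J was 139 in eggs, 986 in G1 zygotes, 2826 in G2 zygotes and 3389 in 2-cell embryos. The B6CASTF1 levels were 2099, 9592 and 11144 in G1 zygotes, G2 zygotes and 2-cell embryos. G2 zygotes thus held 83.4% of the 2-cell level in C57BL/6J and 86.1% in B6CASTF1. In the authors' deposited table Arg2 rose by 2.83 (SE 0.53, adjusted p = 1.9e-05), or 7.09-fold, from MII egg to G1 zygote. This is a rise of poly(A) RNA, and whether the amount of Arg2 RNA changed was not tested. From G1 to G2 it rose by 2.19 (SE 0.22, adjusted p = 7.7e-22), or 4.57-fold, in the authors' deposited table of B6CASTF1, and the 1.52 (SE 0.53) of C57BL/6J missed the threshold with an adjusted p of 0.051. At the 2-cell step the authors' deposited values were 0.26 (SE 0.53, adjusted p = 0.71) in C57BL/6J and 0.22 (SE 0.24, adjusted p = 0.45) in B6CASTF1.

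Tmem92 encodes a small transmembrane protein and lies at chr11:94777217-94782703 on the minus strand. In C57BL/6J its approximate level was 8.12 in eggs, 31.01 in G1 zygotes, 161 in G2 zygotes and 383 in 2-cell embryos. B6CASTF1 embryos had 84.4 in G1 zygotes, 114 in G2 zygotes and 5348 in 2-cell embryos. In C57BL/6J no step was called and all 3 intervals include 0, and in B6CASTF1 the 2-cell step was called. The authors' deposited 2-cell log2 fold change was 1.25 (SE 1.45, adjusted p = 0.49) in C57BL/6J and 5.55 (SE 0.29, adjusted p = 4.9e-80), or 46.7-fold, in B6CASTF1. The SE of Tmem92 in C57BL/6J was thus large, and its 95% interval there reached down to -1.58 on the log2 scale.

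**Figure D3:**
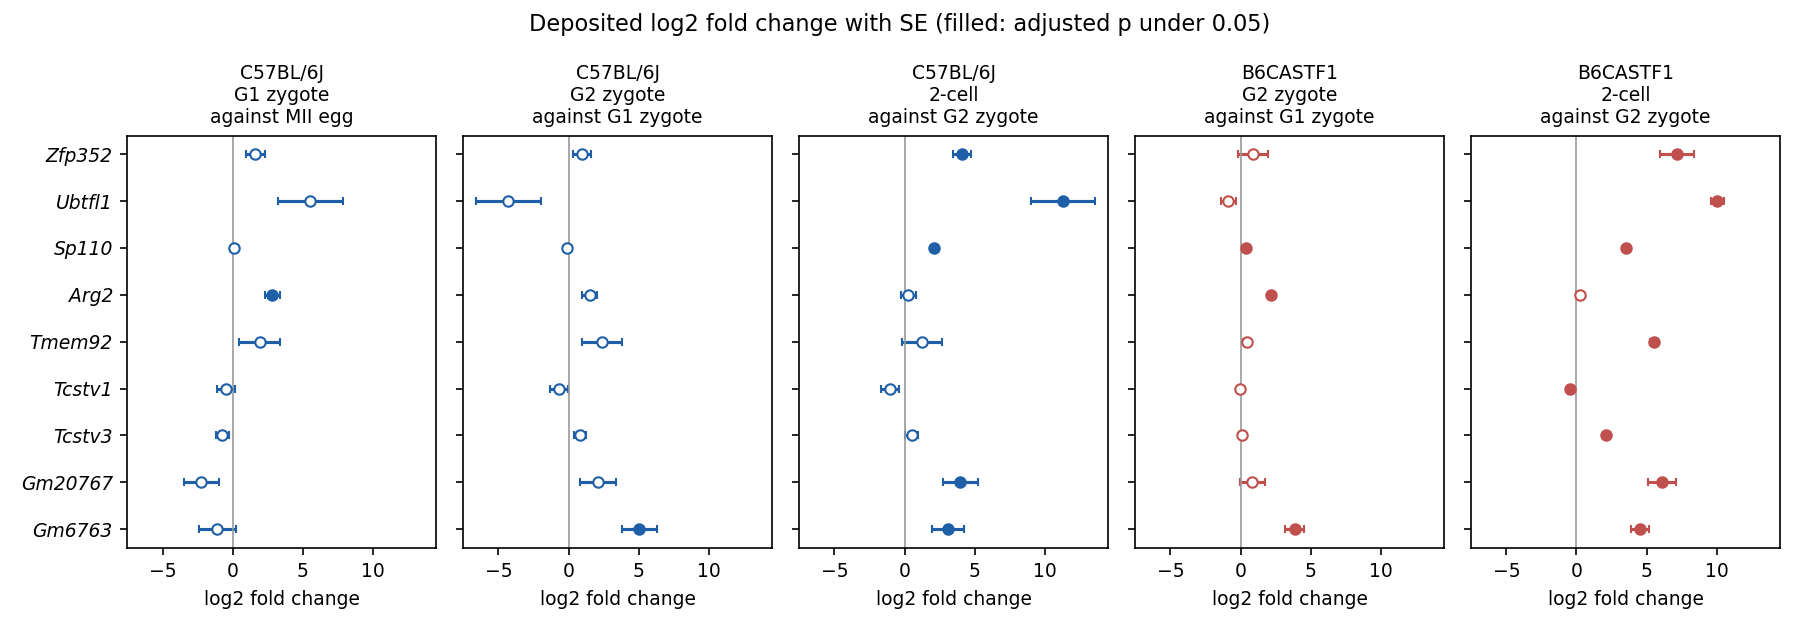
Log2 fold change of each gene in each of the 5 deposited comparisons (C57BL/6J blue, B6CASTF1 red), with bars for the SE and filled points where the authors' adjusted p was under 0.05. In the B6CASTF1 2-cell panel 8 of 9 points are filled, 7 to the right of 0 and Tcstv1 to the left.

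Tcstv1, Tcstv3 and Gm20767 lie in 1 cluster on chromosome 13 and share sequence. Tcstv1 (chr13:119893388-119894785, minus strand) and Tcstv3 (chr13:120316878-120318178, plus strand) are 2-cell genes that have been tied to telomere length in mouse embryonic stem cells, and Gm20767 (chr13:120140246-120155335, plus strand) is a predicted gene. Of their 31-base words, 29.6%, 51.0% and 80.5% also occur in other genes. Of the words of Tcstv3, 29.9% occur in Tcstv1, so reads of the 3 genes may have been exchanged in counting.

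Tcstv1 was highest in eggs and G1 zygotes. Its approximate level in C57BL/6J was 2888 in eggs, 2092 in G1 zygotes, 1281 in G2 zygotes and 617 in 2-cell embryos. In the hybrid it was 3067, 2949 and 2116 in G1 zygotes, G2 zygotes and 2-cell embryos. The authors' deposited tables gave 2-cell log2 fold changes of -1.05 (SE 0.65, adjusted p = 0.16) in C57BL/6J and -0.48 (SE 0.20, adjusted p = 0.033) in B6CASTF1. In C57BL/6J no step of Tcstv1 was called. The B6CASTF1 drop was called at an adjusted p of 0.033 and no longer with an adjusted p under 0.01, a Bonferroni threshold, a log2 fold change of at least 1 or SEs raised 1.5 times. The 2-cell estimate of Tcstv1 was negative in both strains, where its label would place a rise. None of the settings tried could have turned it into a called rise. Tcstv3 had approximate levels of 576, 348, 617 and 878 from egg to 2-cell embryo in C57BL/6J and of 627, 684 and 2960 in the 3 stages of B6CASTF1. Its deposited 2-cell step in the authors' tables was 0.51 (SE 0.44, adjusted p = 0.34) in C57BL/6J and 2.11 (SE 0.25, adjusted p = 8e-17), or 4.33-fold, in B6CASTF1. Tcstv3 was thus present in eggs at 65.6% of its C57BL/6J 2-cell level.

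Gm20767 rose at the 2-cell step in both strains. The C57BL/6J approximate level was 89.4 in eggs, 19.1 in G1 zygotes and 81.1 in G2 zygotes, and 1271 in 2-cell embryos. For B6CASTF1 they were 39.5, 71.3 and 4926 in G1 zygotes, G2 zygotes and 2-cell embryos. The authors' deposited values were 3.97 (SE 1.25, adjusted p = 0.0043), or 15.7-fold, and 6.11 (SE 0.999, adjusted p = 3.8e-09), or 69.1-fold. Of its 31-base words, 70.4% occur in Gm21761, a gene of the same cluster that is not in the tables.

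The neighbours of these 3 genes were looked at after the values were seen. Between AF067063 and Tcstv3, over 488 kb, GENCODE M21 lists 14 coding genes, of which 8 are in the authors' tables. AF067063, at one end, rose by 8.85 (SE 1.17, adjusted p = 4.9e-13) and 8.41 (SE 0.28, adjusted p = 2e-196) in the authors' deposited tables of C57BL/6J and B6CASTF1. B020031M17Rik rose by 10.27 and 6.72, AF067061 by 4.21 and 6.11 and BC147527 by 2.64 and 3.23 in the same deposited tables of the authors. Gm21188 had a mean of 0 in C57BL/6J and was not called in B6CASTF1 (2.81, adjusted p = 0.11, in the authors' deposited table). Tcstv1 was the 1 gene of the 8 with a negative value in both strains.

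**Figure D4:**
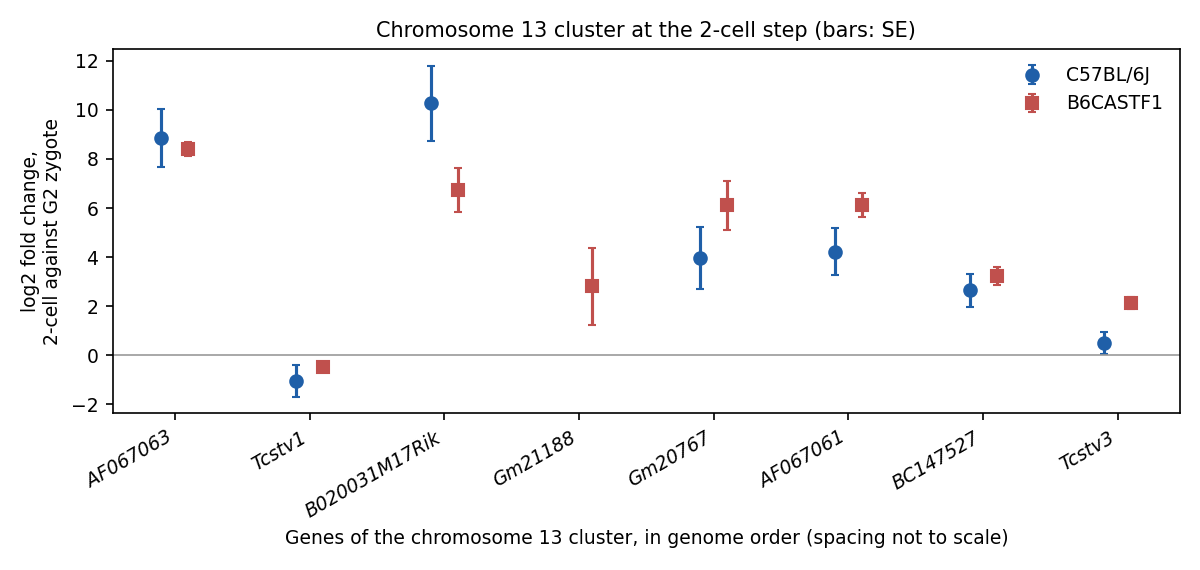
Deposited log2 fold change, 2-cell embryo against G2 zygote, of the 8 genes of the chromosome 13 cluster in genome order, for C57BL/6J (blue circles) and B6CASTF1 (red squares), with bars for the SE. All genes except Tcstv1 lie above 0; Gm21188 has no C57BL/6J value because its mean count there was 0.

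Gm6763 (chr10:104151497-104153965, plus strand) is a predicted gene in a tandem array of 7 coding genes over 51 kb of chromosome 10. All of its 31-base words occur in other genes, and its deposited values are identical to those of its neighbours Gm21293, Gm21304 and Gm8764, so its row stands for 4 genes with 1 set of values. All of its words also occur in each of the 6 other genes of the array, so no word marks Gm6763 alone. Whether those genes hold words that Gm6763 lacks was not looked at. The approximate level of this row in C57BL/6J was 5.37 in eggs, 2.54 in G1 zygotes and 84.7 in G2 zygotes, and 722 in 2-cell embryos. B6CASTF1 gave 5.14, 75.7 and 1760 in G1 zygotes, G2 zygotes and 2-cell embryos. It was the 1 row of the 9 called at both steps in both strains. From G1 to G2 the authors' deposited tables gave 5.06 (SE 1.25, adjusted p = 0.0018), or 33.3-fold, in C57BL/6J and 3.88 (SE 0.68, adjusted p = 2.7e-07), or 14.7-fold, in B6CASTF1. At the 2-cell step they gave 3.09 (SE 1.16, adjusted p = 0.018), or 8.53-fold, and 4.54 (SE 0.62, adjusted p = 8.2e-13), or 23.3-fold, again from the authors' deposited tables. Of the other copies, Gm21312 and Gm20765 had a mean of 0 in C57BL/6J and of 23.8 in B6CASTF1, and Gm4340 was listed at 0 in both. How reads shared by the copies were divided is not stated in the labels. The promoter of Gm21293, printed above, is of this array.

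Levels were set side by side between genes only per kilobase of the longest coding transcript. In 2-cell embryos of C57BL/6J the approximate mean normalized count per kilobase was highest for Sp110 (12664) and Arg2 (2373), followed by Tcstv3 (1127), Gm20767 (890), Gm6763 (580), Tcstv1 (482), Zfp352 (467), Ubtfl1 (215) and Tmem92 (187). In B6CASTF1 the order began in the same way, with Sp110 at 70453, Arg2 at 7804, Tcstv3 at 3799 and Gm20767 at 3452 per kilobase. It went on with Zfp352 (2872), Tmem92 (2618), Tcstv1 (1653), Gm6763 (1412) and Ubtfl1 (1210). These levels have no spread over samples, so neighbours in the order could not be tested against each other. The levels of genes with many shared words, such as Sp110, Tcstv3, Gm20767 and Gm6763, may also include reads of copies.

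The size of the 2-cell step differed between the strains for 3 of the 9 genes, Sp110, Tmem92 and Tcstv3, each steeper in B6CASTF1. The difference of the 2 log2 fold changes was tested with a normal approximation from the deposited SEs and adjusted over the 12573 genes with a deposited adjusted p in each strain, of which 11.6% were higher and 5.03% lower in B6CASTF1. The difference (B6CASTF1 minus C57BL/6J, log2) was 1.48 for Sp110 (SE 0.28, 95% interval 0.92 to 2.04, adjusted p = 7.4e-06), a fold-change ratio of 2.79. It was 1.60 for Tcstv3 (SE 0.51, interval 0.61 to 2.60, adjusted p = 0.014) and 4.30 for Tmem92 (SE 1.47, interval 1.41 to 7.19, adjusted p = 0.026). For Zfp352 it was 3.07 (SE 1.33, interval 0.45 to 5.68), with an unadjusted p of 0.022 and an adjusted p of 0.1 that missed the threshold. For the other 5 genes it lay between -1.27 (Ubtfl1) and 2.14 (Gm20767), with intervals that include 0. The median difference of all genes was 0.29.

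At the step from G1 to G2 zygote 0 of the 9 genes differed between the strains, against 1.04% of 12517 genes higher and 0.879% lower in B6CASTF1. At an unadjusted p under 0.05 the count was also 0, and the smallest unadjusted p was that of Sp110 (0.056, difference 0.52, interval -0.01 to 1.06). With an SE raised 1.5 times, only Sp110 kept an adjusted p under 0.05 at the 2-cell step. The library numbers of the 2 strains form separate series in the labels, so strain and library series cannot be told apart.

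**Figure D5:**
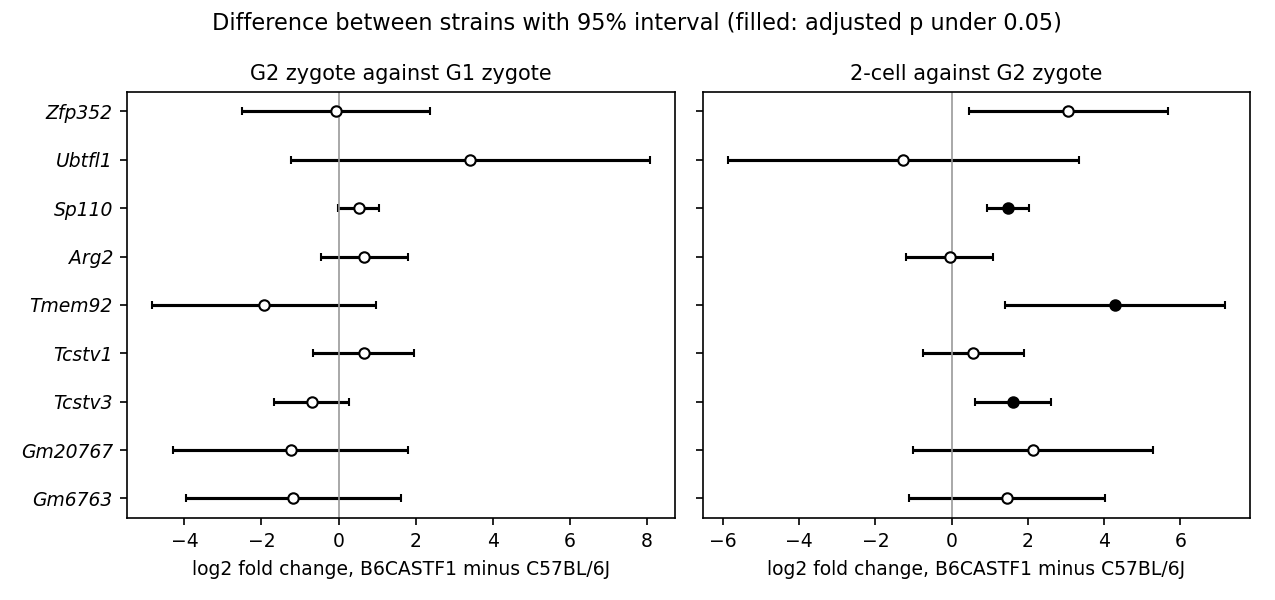
Difference of the log2 fold change between strains (B6CASTF1 minus C57BL/6J) at 2 steps, with 95% intervals and filled points where the adjusted p was under 0.05. At the 2-cell step Sp110, Tmem92 and Tcstv3 are filled and lie to the right of 0, and no point is filled at the earlier step.

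The genes nearest to each pattern were found by the root mean square difference of the 5 log2 fold changes, over the 8094 genes whose mean count reached 100 in each strain. Nearest to Zfp352 were 9330159M07Rik (0.69), Rpl7 (0.74), Rpl39 (0.75), Gltscr2 (0.75) and Mybbp1a (0.77); Rpl7 and Rpl39 encode ribosomal proteins. Nearest to Ubtfl1 were Yars (1.24) and F11r (1.29), and nearest to Sp110 were Wtap (0.22) and Cptp (0.27). The distance does not weigh the SE. That of Ubtfl1 includes its early C57BL/6J steps of 5.55 and -4.31 (SE 2.32 each), which were not called. Arg2 had Cript (0.39) and Elof1 (0.43) as its nearest genes, Tmem92 had Trip13 (0.59) and Fem1c (0.76). For Tcstv1 they were Med19 (0.16) and Slc18a2 (0.18), and for Tcstv3 Avl9 (0.23) and Wdr5 (0.27). Gm20767 was nearest to Rpl18 (0.29) and Armc7 (0.50), and Gm6763 to its identical rows Gm21293 and Gm21304, at 0. No other 2-cell gene of the list below is among the genes named. Several of that list, such as Tdpoz4 (mean 39.8 in C57BL/6J), lay under the mean-count minimum and could not be. 9330159M07Rik, at 3.93 and 6.76 at the 2-cell step of C57BL/6J and B6CASTF1 in the authors' deposited tables, came closest to the values of Zfp352.

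The lists of related genes are given by counts and read against all genes tested at the 2-cell step, of which 25.0% were higher and 25.3% lower in C57BL/6J (median 0.17) and 33.1% higher and 26.8% lower in B6CASTF1 (median 0.55). Of a list of other transient 2-cell genes (Zscan4, Tdpoz, Usp17l, Duxbl and others), 31 of 44 tested were higher at the 2-cell step and 1 lower in C57BL/6J, with a median of 6.19, and 38 of 45 were higher and 2 lower in B6CASTF1, with a median of 6.03. Duxbl2 and Duxbl3 of this list carry identical values and count as 2. Dcdc2c rose by 6.07 and 7.30 and Tdpoz5, a BTB-domain gene, by 8.37 and 7.52 in the authors' deposited tables of C57BL/6J and B6CASTF1. Zfp750, a zinc finger gene on the same list, fell by 10.43 and 5.37 in those deposited tables of the authors.

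Of the genes around Arg2 in arginine and polyamine metabolism, 10 of 22 were higher and 3 lower at the 2-cell step in C57BL/6J (all genes 25.0% and 25.3%). In B6CASTF1 12 of 25 were higher and 6 lower (all genes 33.1% and 26.8%), the lower share being near that of all genes. Odc1, which makes putrescine from ornithine, rose by 3.38 (SE 0.33) and 3.94 (SE 0.21) in the authors' deposited tables of C57BL/6J and B6CASTF1. Sat1, which acetylates spermidine and spermine for export, rose by 3.38 and 4.98, and Agmat, which splits agmatine, by 9.24 and 10.19 in the same deposited tables of the authors. Arg1, the cytosolic arginase, named here outside the rule for the list because it is the paralog of Arg2, rose by 10.12 (SE 1.58, adjusted p = 1.4e-09) and 8.91 (SE 1.53, adjusted p = 2.1e-08) in the authors' deposited tables at the step where Arg2 was not called.

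Among Sp100 family and nuclear body genes, 4 of 14 were higher and 2 lower at the 2-cell step in C57BL/6J, and 6 of 14 were higher and 4 lower in B6CASTF1, beside 25.0%, 25.3%, 33.1% and 26.8% of all genes, and nothing about the list is read from these counts. Besides Sp140, C130026I21Rik rose by 3.85 and 5.78 and A530032D15Rik by 3.18 and 4.76 in the authors' deposited tables of C57BL/6J and B6CASTF1. Of the genes of RNA polymerase I transcription, the setting of Ubtf, 10 of 17 were higher in C57BL/6J (all genes 25.0%) and 18 of 19 in B6CASTF1 (all genes 33.1%), with 0 lower in either. Polr1c, a subunit of polymerases I and III, rose by 7.75 and 6.83, Taf1d, of the promoter selectivity factor, by 2.39 and 4.0, and Cd3eap, a polymerase I subunit, by 5.73 and 4.53 in the authors' deposited tables.

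Of the telomere genes 5 of 16 were higher and 4 lower in C57BL/6J, shares near those of all genes (25.0% and 25.3%), and 10 of 19 were higher and 3 lower in B6CASTF1 (all genes 33.1% and 26.8%). Nop10 (3.06 and 3.49) and Nhp2 (5.53 and 5.59), proteins of H/ACA ribonucleoproteins such as telomerase, rose, and Pot1b, which binds the telomeric single strand, fell by 1.82 and 1.24 in the authors' deposited tables. Of the repressors and activators of MERVL, 11 of 27 were higher and 5 lower in C57BL/6J, and 17 of 30 were higher and 7 lower in B6CASTF1 (all genes 25.0% and 25.3%, and 33.1% and 26.8%). Dppa2, an activator of Dux, rose by 2.92 and 3.26 and the histone deacetylase gene Hdac1 by 9.01 and 7.03, while the DNA methyltransferase gene Dnmt1 fell by 2.81 and 4.27 in the authors' deposited tables. MERVL itself was not analysed here. Of 10 egg markers such as Zp2, Gdf9 and Bmp15, all were tested, and 7 were lower at the 2-cell step in C57BL/6J and 9 in B6CASTF1, with 1 higher in each. Of 10 cumulus and granulosa markers 2 were tested at that step in C57BL/6J (1 higher, 1 lower) and 6 in B6CASTF1 (2 higher, 1 lower). Of 10 sperm and testis markers 5 were tested in C57BL/6J (0 higher, 1 lower) and 4 in B6CASTF1 (0 higher, 3 lower). Of 6 blood and oviduct markers 2 were tested in C57BL/6J (1 higher, 0 lower) and 3 in B6CASTF1 (2 higher, 0 lower). Epcam, an epithelial adhesion gene, was higher by 8.89 and 6.35 in the authors' deposited tables of C57BL/6J and B6CASTF1. Hba-a1, an alpha globin gene, was higher by 9.09 (adjusted p = 3e-38) in that of B6CASTF1. In that of C57BL/6J Hba-a1 stood at 5.56 (SE 1.77), with no adjusted p. Hbb-bs was listed at 0 in both strains, and Ptprc had mean counts of 0.14 and 0.631. Their part in the 2-cell rises was not tested.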

How the data were processed

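Poly(A) RNA of 20 samples in 7 groups was measured by Smart-seq2. The submitters' processing notes name bcl2fastq, kallisto, TopHat, Picard, DESeq2 1.18.1 and the build mm10, with no roles; the counting tool and its settings are not given in the sources used here. Per the file headers, the authors deposited for each gene a mean normalized count (a signal across all samples of a strain), a log2 fold change and its SE, the same fold change after shrinkage, the Wald score, and p-values before and after adjustment. No per-sample values were used, so the depth per sample is unknown and precision rests on the authors' SEs. The deposited mean counts sum to 19348115 in C57BL/6J and 20428114 in B6CASTF1. The 2-cell SE over the G1-to-G2 SE had a median of 1.12 in B6CASTF1 (3552 genes), the value 2 rather than 3 samples at the 2-cell stage would give, and of 1.0 in C57BL/6J (2797 genes). Counts were relative to the authors' normalization; no scale for total RNA per embryo was given.

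Stage levels were solved from the strain's mean count and fold changes, weighted by samples per stage. The strain difference used a two-sided normal test of the difference of the deposited log2 fold changes. It was Benjamini-Hochberg adjusted over the genes with a deposited adjusted p in each strain. The test was run on simulated data with normal noise of the deposited SEs, the form that the test assumes. That run could not check whether SEs from 2 or 3 samples are right, and nothing is concluded from it. All 9 genes were named, with the 5 genes nearest in pattern to Zfp352, the 2 nearest to each other gene and, of each list, at most 3 members called in both strains with the smallest p. The genes and lists were chosen with earlier results of these data known. Loci and 31-base words came from GENCODE M21, promoters from RefSeq (GRCm38.p6). Alternatives were stricter thresholds, mean-count minimums, recentring, larger SEs and shrunken fold changes. Leaving out single samples was not possible. The tools were pandas 2.3.3, numpy 2.4.6 and scipy 1.17.1 under Python 3.11.15, with matplotlib 3.10.9 for figures.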

Additional observations from a re-analysis of the deposited data

Results flagged for a closer look

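The rise from G2 zygote to 2-cell embryo differed between the strains by a test of the difference for 3 genes. Sp110 differed by 1.48 on the log2 scale (B6CASTF1 minus C57BL/6J, adjusted p = 7.4e-06), Tcstv3 by 1.60 (adjusted p = 0.014) and Tmem92 by 4.30 (adjusted p = 0.026). These are normal-test p-values adjusted over 12573 genes, and the B6CASTF1 2-cell group behind them has 2 samples. Sp110 shares 58.0% of its 31-base words with other genes and Tcstv3 51.0%, and the part of such copies in the differences was not tested.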

How the results depend on the processing

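The number of genes called kept within 1.5 times of its reported value in 36 of 43 recalculations. With SEs raised 1.5 times, it fell from 1 to 0 for C57BL/6J G1 zygotes against eggs and for C57BL/6J G2 against G1 zygotes, from 5 to 3 for C57BL/6J 2-cell embryos (Zfp352, Ubtfl1 and Sp110) and from 3 to 1 (Sp110) for the strain difference at the 2-cell step. A Bonferroni threshold gave 0 for C57BL/6J G2 against G1 zygotes and 3 for C57BL/6J 2-cell embryos. An adjusted p under 0.01 left 1 strain difference, Sp110. In B6CASTF1 the calls of Tcstv1 at the 2-cell step (8 to 7 genes) and of Sp110 from G1 to G2 (3 to 2) were lost under both of these thresholds, with SEs raised 1.5 times and with a log2 fold change of at least 1. The loss of calls follows from the construction of these alternatives, and so do some of the kept counts. The mean-count minimums could not change a count of the authors' calls, as the lowest mean of the 9 genes was 146 (Tmem92, C57BL/6J). A strain count of 0 from G1 to G2 could not fall under larger SEs or a stricter threshold. The 36 of 43 is therefore not a measure of stability. Recentring on the median of genes with a mean of at least 100 (0.23 in C57BL/6J and 0.21 in B6CASTF1 at the 2-cell step) and shrunken fold changes left the sign and the call, where one was recalculated, of all 45 log2 fold changes. Recentred, Arg2 stood at 0.04 and 0.0036 at the 2-cell step. Taking 9 rather than 8 samples for the B6CASTF1 mean multiplied the 2-cell levels by 0.751 to 1.03. No paired analysis was possible because values per sample were not given in these tables, and for the same reason no replicate could be left out. Depth is unknown, and levels of Ubtfl1 under 1 count in C57BL/6J limit its fold change.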
